A study of Homo sapiens with 6 samples.

Results

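The genes described here are 40 interferon-stimulated and antiviral sensing genes, chosen by name: a row of the deposited table belonged if its gene name was on the list, and rows sharing a name were summed. They are 40 of 19514 gene names in the table, and all 40 were found, RIGI under its older symbol DDX58. The cells were ARPE-19, a long-established line derived from human retinal pigment epithelium, of wild-type genotype per the labels. One group received tt-DDE at 40 µM for 24 h, the other only the DMSO vehicle for the same time, with 3 libraries of poly(A)-selected RNA in each group and no interferon or virus named for either. The compound, trans, trans-2,4-decadienal, is a reactive aldehyde among the products of linoleic acid oxidation. Nothing in the labels says whether the 3 libraries came from separate cultures, so p-values measure the spread between these libraries, which may be technical.

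Interferons are cytokines that cells release when sensors meet viral RNA or misplaced DNA. RNA sensors of the RIG-I family signal through MAVS, and the DNA sensor cGAS through STING, to kinases that activate the transcription factors IRF3 and IRF7, which switch on interferon genes. Secreted interferon then acts through its receptors and the JAK kinases on STAT proteins, which, with IRF9, bind a short DNA element, the interferon-stimulated response element, near genes whose products block viral replication. Retinal pigment epithelium forms part of the barrier between blood and retina and can mount such a response to virus.

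The element has a recognisable core, and it was looked for as the letters GAAA, any 2 bases and GAAA again, on both strands, in the RefSeq promoter windows of 300 bases (250 before and 50 after a gene's start, build GRCh38.p14). Of the 40 genes 31 had a window, and 19 of these 31 held the letters, 61.3%, against 641 of 15220 genes of the table with a window, 4.21%. By later result they were in 10 of 13 genes that were lower after tt-DDE and had a window, 4 of 7 that were higher, 2 of 5 that did not pass and 3 of 6 with too few counts to test. The following stretches, shown to set genes that fell (OAS3, IFIT1, IFIT3, IFI6 and ISG15) beside HERC5, which rose, run 5′ to 3′ on the gene's strand and lie before the RefSeq start, with matches to the element, on either strand, in capitals. The HERC5 stretch is kept to 30 bases because it falls inside an annotated exon.
OAS3, chr12:112938301-112938351, plus strand: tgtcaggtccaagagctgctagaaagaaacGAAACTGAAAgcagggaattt
IFIT1, chr10:89392477-89392545, plus strand: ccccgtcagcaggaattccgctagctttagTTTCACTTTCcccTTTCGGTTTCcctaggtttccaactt
IFIT3, chr10:89327811-89327893, plus strand: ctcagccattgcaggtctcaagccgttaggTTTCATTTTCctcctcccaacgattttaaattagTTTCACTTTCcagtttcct
IFI6, chr1:27672246-27672378, minus strand: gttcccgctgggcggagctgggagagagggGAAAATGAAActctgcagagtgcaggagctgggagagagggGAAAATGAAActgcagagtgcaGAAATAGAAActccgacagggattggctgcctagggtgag
ISG15, chr1:1013354-1013422, plus strand: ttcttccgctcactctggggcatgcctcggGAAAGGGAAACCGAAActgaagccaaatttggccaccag
HERC5, chr4:88456987-88457016, plus strand: attacagTTTCCTTTTCCTTTTCgattccg
A match is a description of these letters and not a bound site. HERC5, which rose, holds these letters as do OAS3, IFIT1 and IFIT3, which fell. In HERC6, IRF1, IFI35 and STAT2 these letters are not in the windows used here. A second element, TTCNNNGAA, typical of genes that respond to interferon gamma, was in 9 of the 31 genes, against 9.01% of all genes with a window. By later result it was in 1 of 13 lower and 3 of 7 higher genes. It was also in 2 of 5 that did not pass and 3 of 6 not tested. Of the 40 matches to the first element in the 43 windows of these genes, 7 shared bases with a match to the second. Some windows overlap, so a match can be counted more than once, as in IFI44 and IFI27. PARP9 and DTX3L, both lower, share the same match.

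After tt-DDE the 40 genes did not move as a block. The largest falls were in OAS3, IFIT1, IFIT3 and HERC6, and the largest rises in ISG20, HERC5, MX1 and IRF1, each at least 2-fold, and HERC5 and HERC6, neighbours on a chromosome, went opposite ways. Of the 40 genes 29 had enough counts to be tested. Of these 14 were lower, 8 higher and 7 did not pass an adjusted p of 0.05 (quasi-likelihood test of edgeR, Benjamini-Hochberg adjusted over 12531 genes). Genes that were called made up 75.9% of the 29, against 83.3% of all genes tested. The share called lower was 48.3% against 41.6% of all genes, near that of the whole table. The share called higher was 27.6% against 41.7%, below it, a difference that was not tested. At least 2-fold falls were called in 4 of the 29, where 16.8% of all genes had one, and at least 2-fold rises in 4, where 16.1% had one. The median log2 fold change of the 29 was -0.21, beside 0.0013 over all genes tested. All libraries of one group lay above all of the other in 22 of the 29, against 83.9% of all genes tested.

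**Figure D1:**
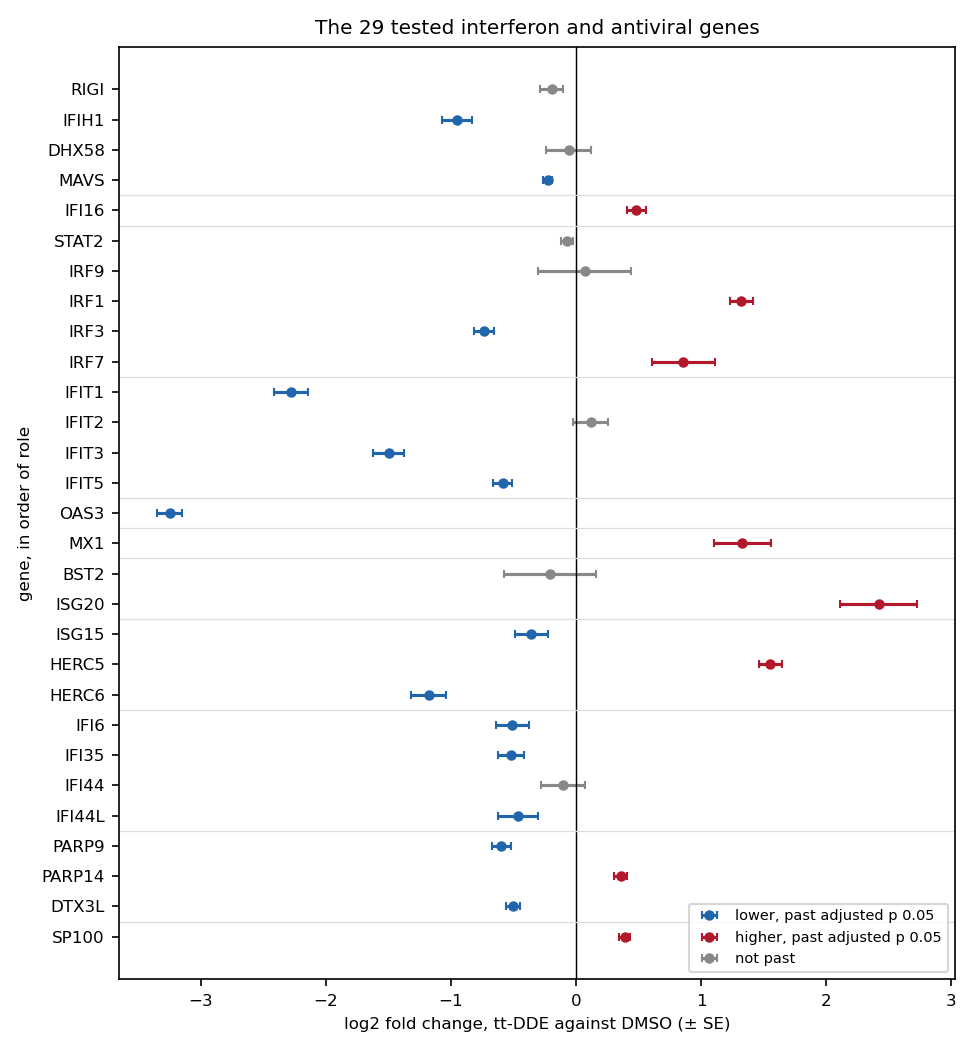
Log2 fold change of tt-DDE against DMSO with its standard error (horizontal axis) for the 29 tested genes, ordered by role, coloured by the call. OAS3 lies farthest to the left at -3.25 and ISG20 farthest to the right at 2.42, and 5 of the 11 roles hold genes on both sides of 0.

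Total counts ran from 14156421 to 16061373 in the DMSO libraries and from 15548067 to 17130543 in the tt-DDE libraries, so that 3 counts, taken as the counting floor, equal 0.175 to 0.212 CPM (counts scaled to library size). In bulk RNA, fewer cells of a kind and less RNA per cell cannot be told apart. Of 14 markers of pigment epithelium 10 had enough counts to test, and 5 of these were lower after tt-DDE, 2 higher and 3 did not pass. OTX2, a transcription factor of the lineage, was at 64.0 ± 2.06 CPM in DMSO and 62.9 ± 1.66 CPM after tt-DDE (SD, n = 3), which did not pass. MITF, the pigment cell factor, was at 59.4 ± 3.50 and 54.2 ± 5.09 CPM (SD, n = 3), called lower with overlapping groups (edgeR adjusted p = 0.0489). RPE65, the retinoid isomerase of mature pigment epithelium, had 0 counts in every library. The summed level of the 14 markers was 1980 to 2030 CPM in DMSO and 830 to 860 CPM after tt-DDE. Nearly all of that sum and of its fall lay in KRT8 (mean 748 to 214 CPM), KRT18 (364 to 145 CPM) and EZR (753 to 340 CPM), epithelial genes that other cell types also express. The pigment markers went both ways. BEST1, a channel of pigment epithelium, rose from 0.506 to 21.5 CPM and TYRP1, a pigment enzyme, from 1.15 to 2.39 CPM. PMEL, another pigment marker of the list, fell from 4.25 to 2.32 CPM without overlap between groups (edgeR adjusted p = 0.000338). Leukocyte markers, 7 in all with CD3E at 0 counts, summed to 127 to 131 CPM in DMSO and 100 to 117 CPM after tt-DDE, nearly all of it CD68, which cell lines also express. CD14, a marker of monocytes, had 1, 1 and 0 counts in DMSO and 39, 23 and 22 after tt-DDE. Endothelial markers, 5 in all, summed to 1.40 to 1.56 and 2.01 to 2.19 CPM. The part of these differences in the results was not tested.

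Among the sensors of RNA, only IFIH1 and the adaptor MAVS passed the test, both lower. IFIH1 encodes MDA5, which binds long double-stranded RNA. Its level was 13.6, 13.9 and 13.1 CPM in DMSO libraries 1 to 3 and 6.91, 6.42 and 7.64 CPM in tt-DDE libraries 1 to 3. The groups did not overlap, and the log2 fold change was -0.95 (SE 0.121, adjusted p = 1.23e-09 by edgeR's quasi-likelihood test). MAVS, the mitochondrial protein through which both RNA sensors signal, was at 256, 256 and 253 CPM in DMSO and 217, 214 and 223 CPM after tt-DDE. This is a 1.17-fold difference, small but beyond the spread between libraries (log2 fold change -0.23, edgeR adjusted p = 5.55e-07). RIGI, the sensor of RNA with 5′ triphosphate ends, lay at 17.8, 19.4 and 18.7 CPM in DMSO and 16.7, 15.9 and 16.3 CPM after tt-DDE. The groups did not overlap, yet its log2 fold change of -0.19 missed the threshold (edgeR adjusted p = 0.0506) and passed when only library size was scaled (-0.29, edgeR adjusted p = 0.00476); over all alternatives in which it passed, the adjusted p ran from 0.00475 to 0.0474. DHX58, which encodes LGP2, a helicase that tunes both sensors, was at 5.34 ± 0.472 CPM in DMSO and 5.16 ± 1.61 CPM after tt-DDE (SD, n = 3), a difference that missed the threshold.

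Transcripts of the cGAS and STING route to DNA sensing were close to the counting floor. CGAS, the enzyme that makes a cyclic dinucleotide on meeting DNA, had 1, 3 and 0 counts in DMSO and 3, 2 and 11 after tt-DDE. Its 16 counts after tt-DDE came mostly from library 3, and the ratio of summed counts was 4.00 with a 95% counting interval of 1.29 to 16.5. STING1, the receptor of that dinucleotide, had 3, 2 and 7 counts in DMSO and 8, 10 and 2 after tt-DDE, with overlapping groups. IFI16, a nuclear DNA sensor, was the one DNA sensor with enough counts to test. Its level was 26.4, 27.6 and 22.0 CPM in DMSO and 33.8, 34.6 and 37.7 CPM after tt-DDE, a log2 fold change of 0.48 (SE 0.0784, edgeR adjusted p = 3.59e-07). Every tt-DDE library was above every DMSO library. The counting intervals cover counting error only and leave out the spread between libraries. They also take no account of PCR copies, which were not marked by molecular identifiers.

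The transcription factors of the pathway moved in both directions. IRF3, which is present at rest and activated by the sensors, was at 28.8, 31.2 and 30.8 CPM in DMSO and 17.2, 18.3 and 19.2 CPM after tt-DDE, a log2 fold change of -0.73 (SE 0.0817, edgeR adjusted p = 4.06e-11). IRF3 (chromosome 19, 49659572 to 49665857, GRCh38.p13, minus strand) overlaps BCL2L12 on the other strand. BCL2L12 had 1390 counts over all libraries against 2308 for IRF3. Without knowing whether strand was used in counting, reads in the bases that both genes share cannot be told apart. The share of such reads was not measured. IRF1, a factor induced by interferon gamma and by inflammatory signals, rose. Its level was 11.7, 11.6 and 12.4 CPM in DMSO and 28.2, 28.2 and 33.1 CPM after tt-DDE, 2.50-fold (log2 fold change 1.32, SE 0.0924, edgeR adjusted p = 1.65e-17). No library of one group came near the other.

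IRF7, the factor that amplifies interferon production, was much scarcer, with 19, 33 and 23 counts in DMSO and 44, 50 and 42 after tt-DDE. It was higher by 0.86 on the log2 scale (SE 0.251, edgeR adjusted p = 0.00187). Only 12.32% of its counts lay on the row of the primary chromosome and the rest on a row of an alternate scaffold. STAT2 and IRF9 are parts of the complex that binds the response element. STAT2 was at 102, 106 and 113 CPM in DMSO and 98.2, 105 and 104 CPM after tt-DDE, overlapping between groups. It did not pass (log2 fold change -0.07, edgeR adjusted p = 0.161), but passed as lower when only library size was scaled (-0.16, edgeR adjusted p = 0.00193) and on the FPKM scale (-0.15, limma adjusted p = 0.0131). IRF9 had 11, 12 and 20 counts in DMSO and 16, 10 and 19 after tt-DDE, and did not pass. IRF9, STING1, IRF7 and IFI27 each have a further row on an alternate scaffold. Of names with such further rows 34.8% had at least 10 counts in 3 libraries, against 66.5% of names with a single row, so the low counts of these 4 genes may miss reads that match both copies, which was not tested.

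Among the effectors, the IFIT family, proteins that bind viral RNA at its 5′ end and hold back its translation, fell in 3 of 4 members. IFIT1 was at 19.1, 15.4 and 19.8 CPM in DMSO and 3.78, 4.28 and 3.06 CPM after tt-DDE, 4.85-fold lower (log2 fold change -2.28, SE 0.138, edgeR adjusted p = 1.09e-19). IFIT3, which binds and stabilises IFIT1, was at 17.6, 16.2 and 15.2 CPM in DMSO and 6.01, 4.78 and 6.58 CPM after tt-DDE, 2.82-fold lower (log2 fold change -1.50, SE 0.125). IFIT5 was at 34.9, 32.4 and 33.2 CPM in DMSO and 22.9, 23.1 and 20.9 CPM after tt-DDE, 1.50-fold lower. In these 3 genes every tt-DDE library was below every DMSO library, by wide margins in IFIT1 and IFIT3.

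IFIT2 was the exception. Its level was 7.55, 6.28 and 7.02 CPM in DMSO and 7.03, 8.06 and 7.51 CPM after tt-DDE, with overlapping groups and a log2 fold change of 0.12 (SE 0.139) that did not pass. All 4 genes lie in a row on the plus strand of chromosome 10, in the order IFIT2, IFIT3, IFIT1 and IFIT5, with gaps of 18.7, 51.7 and 8.1 kb. The ratio of IFIT1 to IFIT2 counts, which no scaling of libraries can change, was 2.45 to 2.82 in DMSO and 0.407 to 0.538 after tt-DDE. This difference reached p = 0.1 in a two-sided exact permutation test, the smallest that 3 against 3 libraries allow, and 0.133 adjusted over the 8 pairs of such ratios compared.

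The OAS enzymes make the 2-5A signal that activates RNase L, which cuts viral and cellular RNA. OAS3, whose product senses long double-stranded RNA, had the largest log2 fold change in size of the 29 genes tested. Its level was 45.4, 43.9 and 43.8 CPM in DMSO and 4.27, 4.34 and 5.45 CPM after tt-DDE, 9.48-fold lower (log2 fold change -3.25, SE 0.0999, edgeR adjusted p = 6.71e-31). The gene (chromosome 12, 112938463 to 112973251, GRCh38.p13, plus strand) lies between OAS1 and OAS2, with gaps of 5.2 kb on either side. Both neighbours were too rare to pass the filter on low counts. OAS1 had 3, 7 and 8 counts in DMSO and 0, 0 and 2 after tt-DDE, a ratio of DMSO to tt-DDE of 8.99 with a 95% counting interval of 2.15 to 79.9. OAS2 had 9, 4 and 6 counts in DMSO and 1, 0 and 0 after tt-DDE, a ratio of 19.0 with an interval of 3.02 to 789. In both genes all DMSO libraries held more than any tt-DDE library. With no filter on low counts, the only setting in which they were tested, both were lower (edgeR adjusted p = 0.00645 for OAS1 and 0.00131 for OAS2). OASL, a relative without the enzyme activity that lies elsewhere on chromosome 12, had 0, 3 and 3 counts in DMSO and 3, 6 and 16 after tt-DDE. Its groups overlapped, and 16 of its 25 counts after tt-DDE came from library 3. With no filter it was higher (edgeR adjusted p = 0.0133), while CGAS (edgeR adjusted p = 0.0598) and STING1 (0.372) did not pass in that setting.

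MX1, a GTPase that traps viral nucleocapsids, rose from a low level. It had 26, 22 and 41 counts in DMSO and 67, 92 and 65 after tt-DDE, or 1.86 ± 0.564 against 4.71 ± 0.947 CPM (SD, n = 3). The groups did not overlap, and the log2 fold change was 1.33 (SE 0.228, edgeR adjusted p = 1.04e-06). Its neighbour MX2 had 1, 1 and 1 counts in DMSO and 0, 0 and 3 after tt-DDE, too few to compare. ISG20, an exonuclease that degrades RNA, had 5, 15 and 8 counts in DMSO and 52, 51 and 48 after tt-DDE. It rose by 2.42 on the log2 scale (SE 0.310, edgeR adjusted p = 1.69e-09), and the tt-DDE libraries were close together at 3.12, 3.21 and 3.19 CPM. BST2, tetherin, which holds budding virus at the cell surface, had 12, 20 and 19 counts in DMSO and 17, 7 and 20 after tt-DDE, with overlapping groups, and did not pass.

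Several genes that are strongly induced by interferon in many cell types were at or under the floor in both groups. RSAD2, viperin, had 0 counts in DMSO and 1 after tt-DDE. CMPK2, its neighbour, had 1 and 1, IFI27 1 and 0, and XAF1 0 and 2. EPSTI1 had 0 counts in every library. These 5 genes were not detectable in these counts, and the data give no direction for them.

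**Figure D2:**
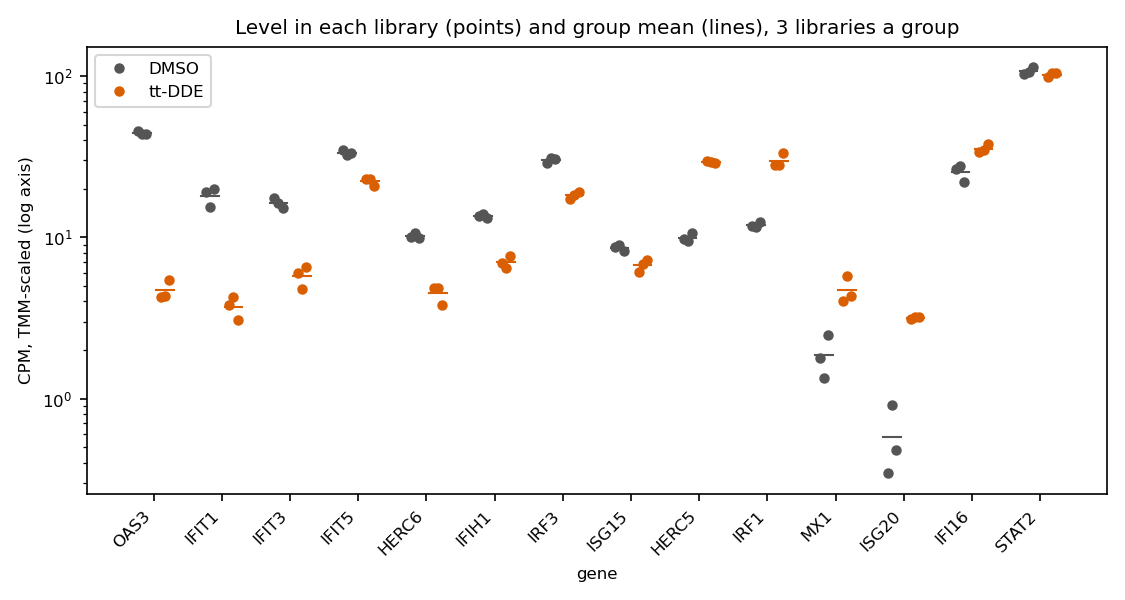
Level of 14 of the genes in each library as CPM scaled with TMM factors (vertical log axis), grey for DMSO and orange for tt-DDE, with a line at each mean of 3 libraries. OAS3 and IFIT1 drop below all their DMSO values, HERC5, IRF1, MX1 and ISG20 lie above theirs, and the points of STAT2 overlap.

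ISG15, a ubiquitin-like protein that is attached to other proteins and also secreted, and the HERC genes gave the clearest split between close relatives. ISG15 was at 8.65, 8.91 and 8.22 CPM in DMSO and 6.13, 6.80 and 7.24 CPM after tt-DDE. It was lower by a log2 fold change of -0.36 (SE 0.135, edgeR adjusted p = 0.0147), a call lost without tt-DDE library 1 (-0.29, edgeR adjusted p = 0.0734). HERC5, the main ligase that attaches human ISG15 to proteins, was at 9.82, 9.45 and 10.6 CPM in DMSO and 29.9, 29.2 and 28.8 CPM after tt-DDE, 2.94-fold higher (log2 fold change 1.55, SE 0.0928, edgeR adjusted p = 6.37e-20). HERC6, its relative, was at 10.0, 10.7 and 9.96 CPM in DMSO and 4.87, 4.85 and 3.79 CPM after tt-DDE, 2.26-fold lower (log2 fold change -1.18, SE 0.143, edgeR adjusted p = 4.60e-10). Both were called, in opposite directions, from nearly equal levels in DMSO. They lie 13.5 kb apart on the plus strand of chromosome 4, HERC6 from 88378485 to 88443097 and HERC5 from 88456604 to 88506170 (GRCh38.p13). The ratio of HERC6 to HERC5 counts was 1.02, 1.13 and 0.938 in DMSO and 0.163, 0.166 and 0.131 after tt-DDE, with an exact permutation p = 0.1, the smallest possible.

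Of the 5 IFI genes other than the DNA sensor IFI16, which rose, 3 fell, each by less than 2-fold. IFI6, a small membrane protein that blocks flavivirus replication, was at 10.6, 9.09 and 10.5 CPM in DMSO and 6.79, 7.30 and 7.11 CPM after tt-DDE (log2 fold change -0.51, edgeR adjusted p = 0.000421). IFI35, a partner of NMI in interferon signalling, was at 16.9 ± 0.743 CPM in DMSO and 11.8 ± 0.668 CPM after tt-DDE (SD, n = 3; log2 fold change -0.52). Neither overlapped between groups. IFI44L, at 7.14, 5.73 and 7.74 CPM in DMSO and 4.93, 5.86 and 4.12 CPM after tt-DDE, was called lower (-0.46, edgeR adjusted p = 0.00822) although its groups overlapped, and the call was lost without DMSO library 3 (-0.37, edgeR adjusted p = 0.0619) and without tt-DDE library 3 (-0.35, edgeR adjusted p = 0.0599). Its neighbour IFI44, 2.8 kb away, was at 4.99 ± 0.941 CPM in DMSO and 4.65 ± 0.406 CPM after tt-DDE (SD, n = 3), which missed the threshold.

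PARP9 and DTX3L encode partners that form a ubiquitin and ADP-ribose transfer complex, and their genes start head to head on chromosome 3. PARP9 was at 34.7, 41.0 and 39.9 CPM in DMSO and 24.1, 27.3 and 25.2 CPM after tt-DDE (log2 fold change -0.60, SE 0.0749). DTX3L was at 63.6, 69.0 and 65.9 CPM in DMSO and 47.6, 46.7 and 45.7 CPM after tt-DDE (-0.50, SE 0.0568). Both fell, and the ratio of their counts was 0.546 to 0.606 in DMSO and 0.506 to 0.586 after tt-DDE, with overlapping groups (exact permutation p = 0.3, in a design that cannot go below 0.1). The annotated genes overlap by 447 bases on opposite strands, and reads there cannot be told apart.

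PARP14, a further ADP-ribosyl transferase 105.5 kb from DTX3L, rose instead. It was at 60.8, 55.8 and 60.4 CPM in DMSO and 78.7, 72.5 and 75.3 CPM after tt-DDE (log2 fold change 0.36, SE 0.0545, edgeR adjusted p = 1.01e-07). SP100, a component of PML nuclear bodies that represses viral genomes, also rose. Its level was 92.7, 95.6 and 96.0 CPM in DMSO and 123, 123 and 127 CPM after tt-DDE (0.39, SE 0.0451, edgeR adjusted p = 1.13e-10). Neither gene overlapped between groups.

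**Figure D3:**
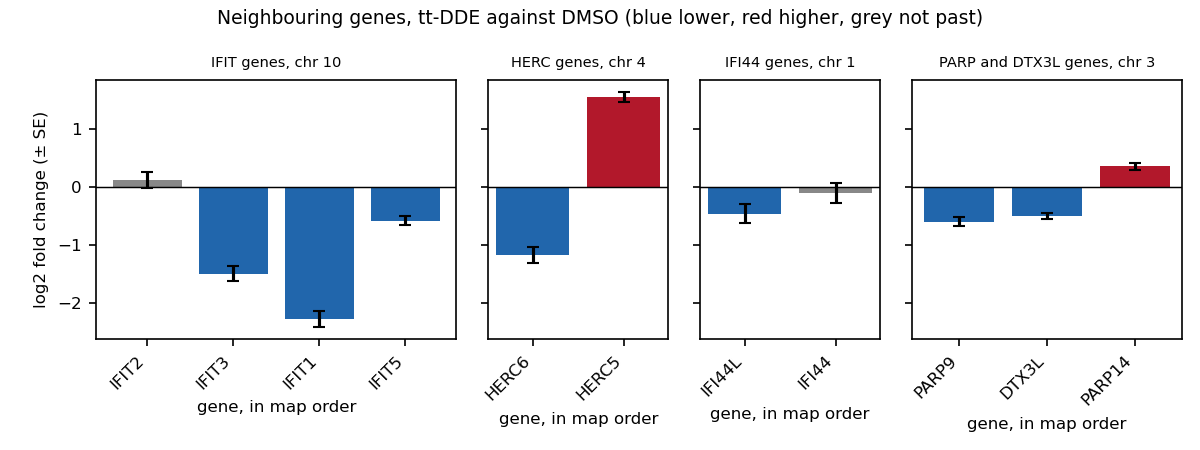
Log2 fold change with its standard error (vertical axis) for members that lie next to each other, in map order, in 4 loci. HERC6 and HERC5 go in opposite directions at -1.18 and 1.55, and IFIT2 stands near 0 beside IFIT3, IFIT1 and IFIT5 below it.

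Levels of different genes were compared per length, as the FPKM that the authors deposited (reads scaled to gene length and library total), which carry no composition factor. In DMSO the highest were MAVS at 22.2 ± 0.0780, STAT2 at 20.6 ± 1.15 and ISG15 at 13.9 ± 0.514 FPKM (SD, n = 3). After tt-DDE, MAVS at 17.8 ± 0.401 and STAT2 at 18.4 ± 0.574 FPKM (SD, n = 3) still led, by values within their spread of each other, and SP100 at 15.8 ± 0.296 FPKM lay above ISG15 at 10.2 ± 0.833 FPKM. OAS3 and IFIT3, close in DMSO at 6.92 ± 0.120 and 6.46 ± 0.463 FPKM, were at 0.686 ± 0.0964 and 2.15 ± 0.343 FPKM after tt-DDE. HERC5 at 7.03 ± 0.143 and IRF1 at 6.73 ± 0.635 FPKM were then above both. The least abundant gene tested was ISG20, at 0.0933 ± 0.0480 FPKM in DMSO and 0.479 ± 0.00539 FPKM after tt-DDE. On the log2(FPKM + 1) scale, which understates changes of low genes, the change of ISG20 was 0.44, that of MX1 0.42, that of IRF7 0.40 and that of IFIT1 -1.50. Those of PARP14 (0.23) and IFI44L (-0.28) were also reduced by more than 1.5 times. PARP14, at 6.60 FPKM in DMSO, was not a low gene. On counts its change was 0.36 with TMM factors and 0.26 with library size alone, which like FPKM carries no composition factor. The calls of these 6 genes and their directions were as on counts.

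**Figure D4:**
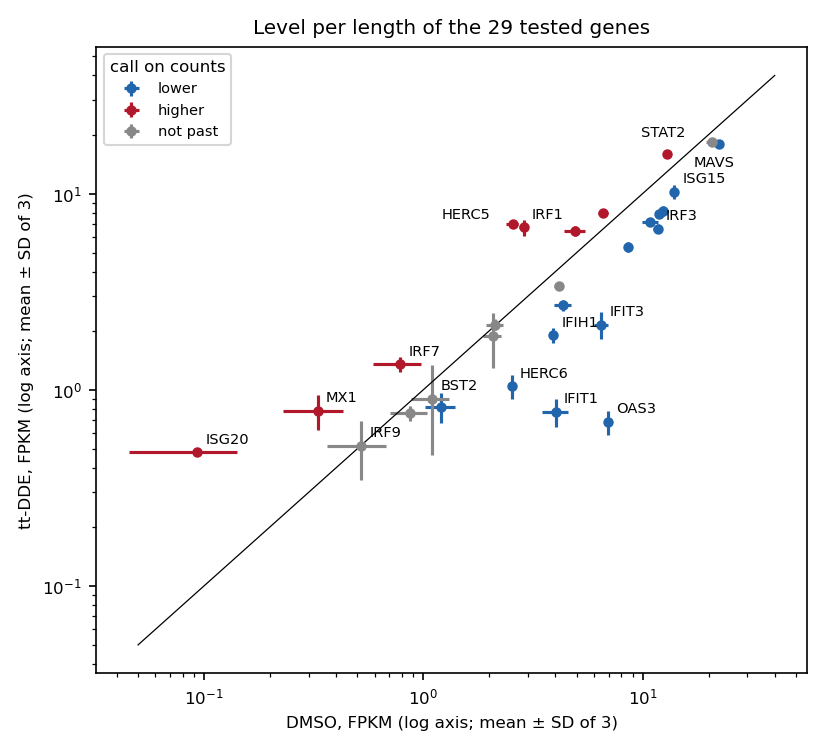
Mean FPKM with SD of 3 libraries in DMSO (horizontal log axis) and after tt-DDE (vertical log axis) for the 29 tested genes, coloured by the call on counts, with the line of equal values. MAVS and STAT2 lie at the top near the line at about 20.6 to 22.2 FPKM in DMSO, and OAS3 and IFIT1 lie farthest below it.

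Beyond these 40, 93 further genes of the interferon pathway were listed by role, and 72 had enough counts to test. Of these 32 were lower, 28 higher and 12 did not pass, or 44.4% and 38.9%, against 41.6% and 41.7% of all genes. Their median log2 fold change was -0.0046. Interferon transcripts themselves were scarce. IFNB1 had 2 counts, both after tt-DDE, and IFNA2, IFNG, IFNL1, IFNL2 and IFNL3 had 0 counts in every library. IFNE, an interferon made constitutively by epithelia of the reproductive tract, was the ligand with enough counts to test, and it fell from 8.27 ± 0.851 to 3.67 ± 0.505 CPM (SD, n = 3). IFNA1, one of many near-identical alpha interferon genes and so uncertain, had 40 counts in DMSO and 7 after tt-DDE (ratio of DMSO to tt-DDE 5.71, 95% counting interval 2.53 to 15.1).

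Of 9 receptor chains and kinases, 5 rose and 2 fell, or 55.6% and 22.2%, against 41.7% and 41.6% of all genes tested. IFNGR1, a chain of the interferon gamma receptor, and the kinases JAK2 and JAK1, bound to that receptor, rose by 1.19, 1.02 and 0.42 on the log2 scale. IFNGR2, the other chain of that receptor, and the kinase TYK2 did not pass (0.07 and 0.06). The level of IFNGR2 is uncertain, as it has 2 rows in the table. IFNAR2, a chain of the type I interferon receptor, fell from 16.4 ± 0.204 to 10.1 ± 0.915 CPM (SD, n = 3; log2 fold change -0.71). Of 7 feedback inhibitors 4 fell and 1 rose, or 57.1% and 14.3%, against 41.6% and 41.7% of all genes tested. The one that rose was SOCS1, an inhibitor of JAK kinases, which went from 13 to 95 summed counts (2.84, or 3.57 without DMSO library 2), while PTPN6, a phosphatase, and PIAS1, a STAT inhibitor, fell (-1.16 and -0.32). The list of toll-like receptors and induction kinases, which also holds their adaptors and IRF factors, had 11 higher and 3 lower of 14 tested. These are 78.6% and 21.4%, against 41.7% and 41.6% of all genes tested. TRIM25, a ubiquitin ligase of the RIG-I pathway, rose from 114 ± 4.03 to 247 ± 8.30 CPM (SD, n = 3), and TRAF6 and TICAM1, which relay signals of toll-like receptors, rose by 0.94 and 1.09 on the log2 scale. IRF2, an antagonist of IRF1, fell (-0.55).

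Further interferon-stimulated effectors were lower in 16 and higher in 7 of 28 tested, with a median of -0.39. These shares, 57.1% and 25%, stand against 41.6% and 41.7% of all genes tested. TRIM22, a restriction factor, fell from 155 ± 8.08 to 57.2 ± 5.32 CPM (SD, n = 3), while TRIM5, a factor that targets retroviral capsids, and SLFN5 rose by 1.13 and 1.12 on the log2 scale. Guanylate-binding proteins, GTPases that attack intracellular microbes, also divided. GBP1 fell from 25.5 ± 1.93 to 5.70 ± 0.0437 CPM (SD, n = 3), whereas GBP2, GBP3 and GBP5 rose (0.66, 0.36 and 2.47). The rise of GBP5 (SE 0.504) started near the counting floor, with 1, 4 and 5 counts in DMSO and 15, 29 and 13 after tt-DDE. Class I antigen presentation had 5 lower and 1 higher of 9 tested, or 55.6% and 11.1%, against the same shares of all genes. PSMB10, an immunoproteasome subunit, NLRC5, the activator of class I genes, and B2M, the light chain of class I molecules, fell (-1.07, -0.70 and -0.63). HLA-B, a class I heavy chain, rose by 0.13 on the log2 scale, but did not pass when scaled by library size alone (0.04, edgeR adjusted p = 0.362). Of these genes HLA-B, HLA-C, HLA-E, HLA-F, B2M, TAP1, TAP2, TAPBP, PSMB8 and PSMB9 have 2 to 8 rows in the table, most on alternate scaffolds, so their levels are uncertain.

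**Figure D5:**
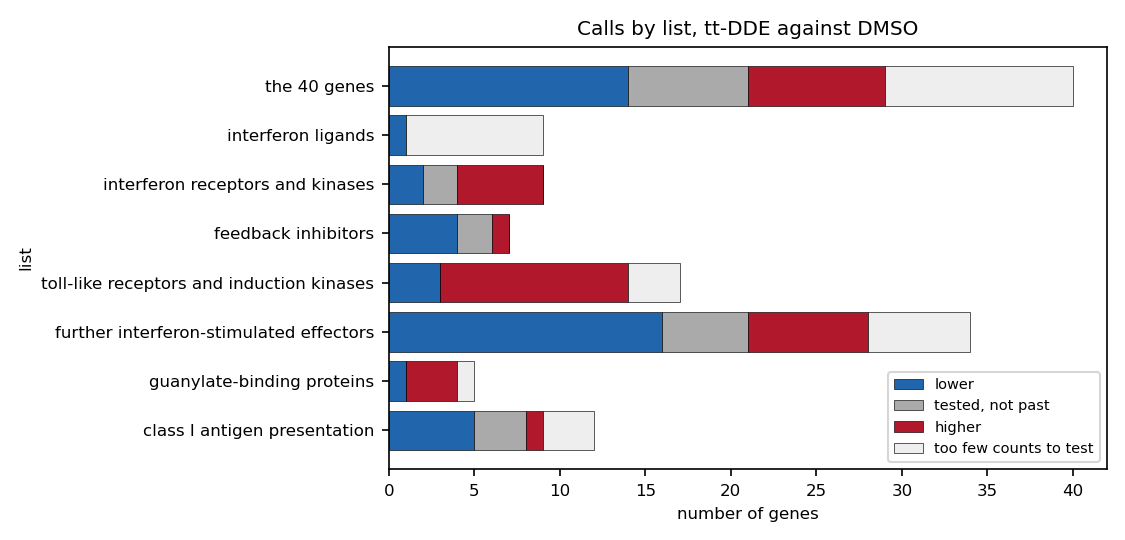
Number of genes (horizontal axis) called lower, not past, called higher or with too few counts to test, for the 40 genes and for each role of the 93 further pathway genes. Lower and higher calls stand side by side in every list with more than 1 tested gene. The list of toll-like receptors and induction kinases has the most higher calls, 11 of 14 (78.6%, against 41.7% of all genes tested).

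Genes outside the 40 that hold the letters of the response element in a promoter window moved much as other genes did. Of 374 tested, 38.5% were lower and 41.2% higher, with a median log2 fold change of 0.018, against 42.1%, 41.5% and -0.007 in the 9818 without them. As a match of letters is not a bound site, the comparison cannot show how genes that use the element moved. Within the 40 genes the letters likewise stood before genes that fell and genes that rose.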

How the data were processed

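Poly(A)-selected RNA of ARPE-19 cells was sequenced per the labels' protocols. The deposited table holds a read count and an FPKM per gene row and library. Per the submitters' processing notes the genome build was GRCh38.p13; not given in the sources used here are the aligner, counter, annotation release and use of strand. The counts were deposited unnormalized, as whole numbers, and the FPKM that the authors deposited equalled count over length and column total for 91254 of 91254 values above 0 (relative tolerance 1e-06). Groups came from sample titles and columns from library names.

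Rows sharing a name (1290 names) were summed. The summed counts went through filterByExpr, TMM scaling, glmQLFit and glmQLFTest of edgeR 4.0.16 (R 4.3.3) with group as sole term. The p-values are two-sided, adjusted by Benjamini-Hochberg over 12531 genes, with a threshold of 0.05. The method was tested on simulated data in which most genes were unchanged. In the data themselves 83.3% of genes tested were called, a case that the simulation does not cover. CPM are scaled with TMM factors and SD is over 3 libraries. Ratios of few counts have exact 95% conditional intervals. Alternatives used limma 3.58.1 on log2(FPKM + 1) and DESeq2 1.42.0 among others. Within groups, chi-square per degree of freedom between libraries was 1.74 to 3.57, above sampling noise, so no library was counted as a deposit of another; separate preparations of one RNA were not tested.

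The members and lists were chosen with earlier results of these data known, and some listed genes are not reported here. All members are named. Of the further pathway genes, the 3 with the smallest p in each role and the first of the rarer direction are named. Others (IFNB1, IFNA1 and further ligands, IFNGR2, TYK2, GBP5 and genes with several rows) were named after their values were seen.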

Additional observations from a re-analysis of the deposited data

How the results depend on the processing

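Values were recomputed under the alternatives for the 29 tested members and the pathway genes named by smallest p or rarer direction. Of these values 692 kept their direction and their side of the threshold. A further 7 passed where the main value had not (5 for RIGI and 2 for STAT2), and 5 no longer passed (1 for ISG15, 2 for IFI44L and 2 for HLA-B). The other 9 changed sign, all in genes that passed neither as reported nor there. The log2 fold change of IRF9 (0.07 as reported) went to -0.022 with library size alone and to -0.0037 with limma on log2(FPKM + 1). With each library left out in turn, that of IRF9 ran from -0.17 to 0.34, DHX58 (-0.06) from -0.28 to 0.18, BST2 (-0.21) from -0.53 to 0.13 and IFI44 (-0.10) from -0.23 to 0.051. The cause was not tested. Members called lower numbered 13 to 17 and called higher 8 or 9 under other scalings, filters, tools, summing of rows and left-out libraries, against 14 and 8. Requiring a change of at least 2-fold left 4 lower and 4 higher members, 12 lower and 11 higher pathway genes, and 2099 lower and 2023 higher of all genes. Scaling by library size alone shifted the median of all genes to -0.0906. The replicate numbers did not pair the libraries: deviations of same-numbered libraries correlated at 0.017, -0.006 and -0.012, and with the replicate block 14 members were lower and 8 higher. Low counts limit the 11 members that were not tested. For STING1 and IFI27, each with a further row, reads that match both copies may also be missing, which was not tested.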
